A study of Arabidopsis thaliana with 6 samples.

Results

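The jasmonate genes described here are 37 genes of *Arabidopsis thaliana* chosen by identifier for their place in the hormone pathway. The rule uses no measured value, though the genes were chosen with earlier results of these data known. The 37 genes cover synthesis (13 genes), the receptor subunit *COI1*, the JAZ repressors (12) and the *MYC2*, *MYC3* and *MYC4* activators. The others are the vegetative storage protein genes *VSP1* and *VSP2* and enzymes of jasmonate turnover (6). The deposited table listed 36 of the 37 among its 24340 genes, and *MYC2* (AT1G32640) was not analysed here. Expression was measured by RNA-seq as TPM (a transcript abundance, reads of a gene divided by its length and scaled to the same sum in every sample) in shoot apices of plants carrying mutations in *AP1* and *CAL*. Of these, 3 samples received a mock solution and 3 received 1 mM SNP (sodium nitroprusside, a nitric oxide donor that also contains iron and cyanide), both with the surfactant Silwet and both for 24 h. Mock and SNP plants thus share the *ap1/cal* background, whose apices form masses of inflorescence and young floral meristems that arrest early. No sample received iron, cyanide or spent donor alone, so the parts of SNP cannot be told apart.

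Jasmonates are made from a plastid fatty acid by lipoxygenases (LOX), allene oxide synthase (AOS) and allene oxide cyclases (AOC), followed by a reductase (OPR3) and beta-oxidation in the peroxisome. JAR1 joins jasmonic acid to isoleucine, and the conjugate is held by the F-box protein COI1 together with a JAZ protein, which is then degraded. JAZ proteins otherwise keep the MYC transcription factors inactive, and MYC factors in turn switch on JAZ, *LOX* and *VSP* genes. The hormone is cleared by CYP94 cytochrome P450 enzymes, which oxidise the isoleucine conjugate, and by jasmonate-induced oxygenases (JOX), which hydroxylate jasmonic acid. In flowers the pathway is known for its part in stamen maturation.

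After SNP, transcripts of 3 of 6 turnover genes (*CYP94B3*, *JOX2* and *JOX3*) and of the reductases *OPR1* and *OPR2* were several-fold higher, no JAZ repressor passed the test, and *VSP1*, the most abundant of the 36 transcripts, was lower. Groups were compared by limma on log2(TPM + 0.5) over every gene averaging 0.5 TPM or more, and a gene was called at a fold change of at least 1.5 (0.58 on the log2 scale) with an unadjusted p under 0.01, the criterion given in the methods of the study. This filter kept 32 of the 37, and 7 of these were called higher and 1 lower. Of the 7, *CYP94B3* passed the filter only through its SNP values, and with a mean of at least 1 TPM 6 were higher. Among all 18966 tested genes 16.9% were called, 10.5% higher and 6.4% lower, and with 75th percentile scaling the calls divided into 1707 higher and 1619 lower in place of 1991 and 1214. The 8 jasmonate genes called were the same with that scaling. The median log2 fold change was 0.12 over the 32 genes and 0.06 over all tested genes. Groups that did not overlap were found for 15 of the 32 (12 higher, 3 lower), no larger a share than the 51.2% of all tested genes (29.2% higher, 22.0% lower). An adjusted p under 0.05 (Benjamini-Hochberg over all tested genes) was reached by 11 genes that were higher and 3 that were lower, where the background was 29.6% (16.6% higher, 13.0% lower). Fold changes are given on the log2(TPM + 0.5) scale, which makes those of weakly expressed genes too small.

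**Figure D1:**
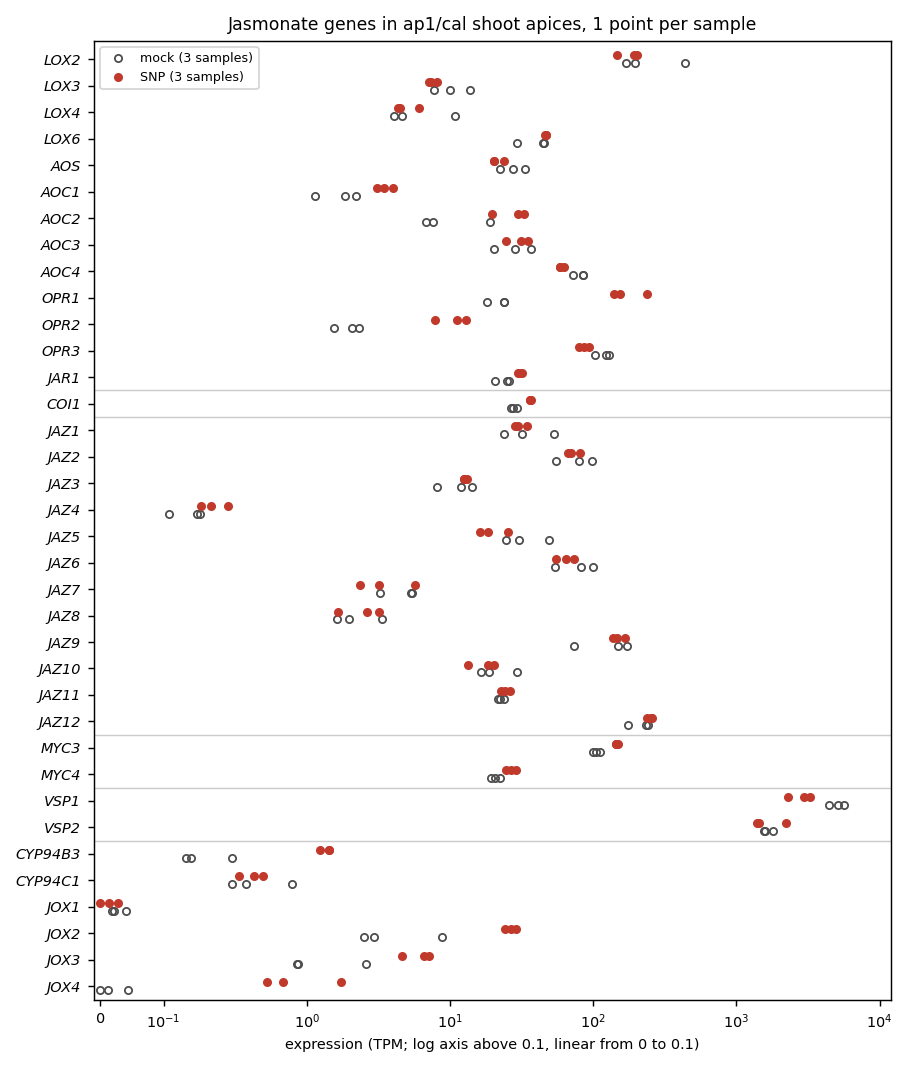
TPM of the 36 listed jasmonate genes in each of the 3 mock (open circles) and 3 SNP (filled circles) samples, on an axis that is logarithmic above 0.1 TPM and linear below. Levels ran from 0 TPM for *JOX1* and *JOX4* to 5602 TPM for *VSP1*, and *OPR1*, *OPR2*, *CYP94B3*, *JOX2*, *JOX3* and *JOX4* are the rows in which filled circles lie well to the right of open ones.

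The libraries held between 51879530 and 99089586 reads as recovered from the TPM values, and the weakest genes rest on few of them (12 to 103 reads per sample for *CYP94B3*, 40 to 158 for *JAZ8* and 65 to 177 for *AOC1*). Correlations across all tested genes, on the log2 scale, were 0.991 between mock replicates 2 and 3, 0.977 between mock replicate 1 and each of them, and 0.989 to 0.993 among SNP replicates. Mock replicate 1 was low for long genes, with a median of -0.43 (log2) for the longest of 5 length classes. The meristem genes *STM*, *KNAT1* and *CLV3* were present in every sample (*STM* at 105 to 137 TPM), as were the floral meristem genes *LFY* and *UFO*, of which *UFO* was called higher (log2 fold change 0.68, limma adjusted p = 0.0149) but not without mock replicate 3 (0.0392) or SNP replicate 1 (0.0654). Of 3 anther genes measured, *AMS*, *DYT1* and *A9*, the summed level was 0.216 to 5.35 TPM in mock and 0.127 to 6.72 TPM in SNP samples, highest in mock replicate 2 and SNP replicate 3, while *A9* was at 0 in 3 samples and *DYT1* in 3. The summed level of 5 green tissue genes (*RBCS1A*, *RBCS3B*, *CAB1*, *LHB1B2*, *LHCB3*) was 5399 to 6008 TPM in mock and 5338 to 6229 TPM in SNP samples. The *ap1* and *cal* alleles need not change RNA level, and *AP1* and *CAL* were detected at 1.82 to 3.41 and 22.1 to 34.6 TPM. Where a transcript differs in such bulk tissue, fewer cells of a type and less RNA per cell cannot be told apart.

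**Figure D2:**
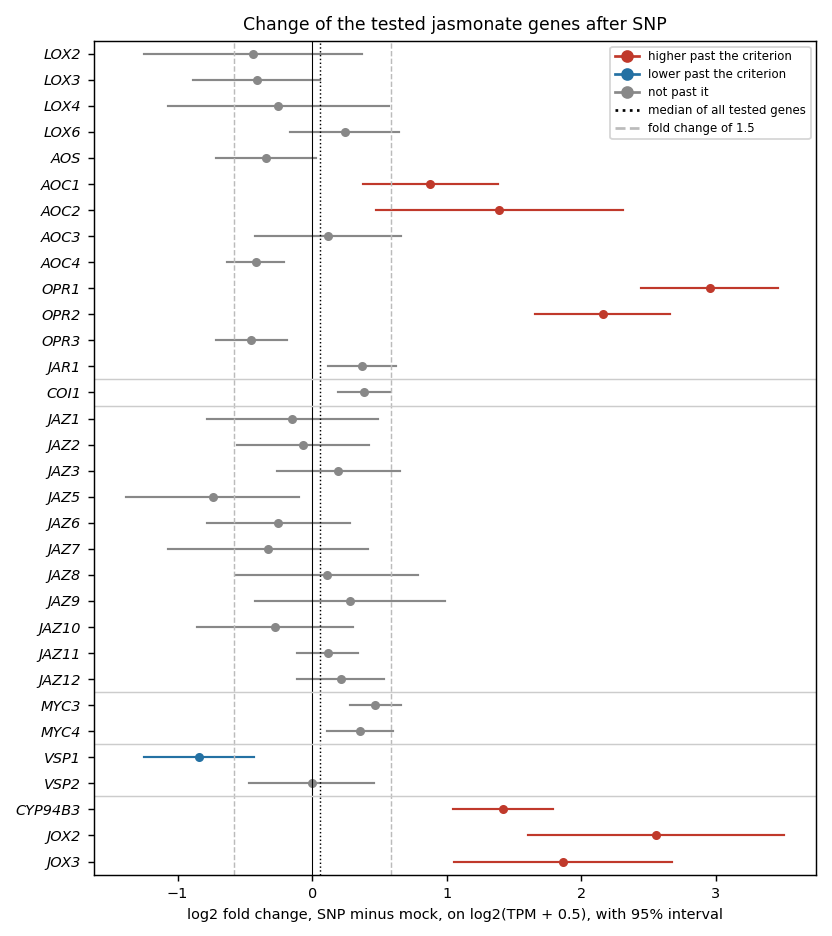
Log2 fold change (SNP minus mock, on log2(TPM + 0.5)) of the 32 tested jasmonate genes with the 95% interval from limma. Red genes were called higher and the blue gene lower, dashed lines mark a fold change of 1.5 and the dotted line the median of all tested genes. The 7 red genes lie at 0.88 to 2.95, and the 11 JAZ genes between -0.74 and 0.28.

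Promoters were read from the reference for 2 JAZ genes, whose transcripts were not called, and for 2 of the genes that rose, because MYC factors bind the G-box CACGTG and TGA factors bind TGACG. The windows are the 250 bases before the annotated gene start in TAIR10.1, written 5′ to 3′ on the gene's strand, with matches to CACGTG or to TGACG on either strand in capitals. *JAZ2* lies on the minus strand (chr1:28150447-28150696), *JAZ3* on the plus strand (chr3:6119457-6119706), *OPR1* on the plus strand (chr1:28776376-28776625) and *JOX3* on the minus strand (chr3:20769411-20769660), and none of these windows overlaps another annotated gene.
JAZ2: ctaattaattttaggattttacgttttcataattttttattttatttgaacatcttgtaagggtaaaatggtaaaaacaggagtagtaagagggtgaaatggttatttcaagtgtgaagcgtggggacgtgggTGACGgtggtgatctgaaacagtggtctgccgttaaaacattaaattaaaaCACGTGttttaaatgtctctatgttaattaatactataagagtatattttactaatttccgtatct
JAZ3: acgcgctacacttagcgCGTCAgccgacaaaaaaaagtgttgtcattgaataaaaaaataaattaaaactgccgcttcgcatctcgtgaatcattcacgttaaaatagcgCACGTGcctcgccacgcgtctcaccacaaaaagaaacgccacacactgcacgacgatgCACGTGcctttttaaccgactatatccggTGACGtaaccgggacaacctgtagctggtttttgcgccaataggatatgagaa
OPR1: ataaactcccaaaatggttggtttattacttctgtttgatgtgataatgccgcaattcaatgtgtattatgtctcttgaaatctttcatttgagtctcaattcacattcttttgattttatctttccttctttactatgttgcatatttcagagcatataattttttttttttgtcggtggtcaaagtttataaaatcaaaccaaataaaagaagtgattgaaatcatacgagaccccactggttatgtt
JOX3: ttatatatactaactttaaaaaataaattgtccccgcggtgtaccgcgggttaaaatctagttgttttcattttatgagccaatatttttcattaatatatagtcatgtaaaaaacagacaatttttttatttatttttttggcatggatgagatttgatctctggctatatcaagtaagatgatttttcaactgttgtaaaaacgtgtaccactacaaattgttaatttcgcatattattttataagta
The *JAZ3* window held 2 copies of each motif and the *JAZ2* window 1 of each, with no match overlapping another. The *OPR1* and *JOX3* windows held neither. Of the 12 JAZ windows only those of *JAZ2* and *JAZ3* held both motifs, so the printed JAZ windows do not stand for the family. CACGTG was present in 4 of 12 JAZ windows (*JAZ2*, *JAZ3*, *JAZ7* and *JAZ8*) and in 2 of the 25 other genes (*AOS* and *JOX1*), compared with 6.90% of 24182 promoters of the same length. With 1000 bases the G-box was present in 8 of 12 JAZ promoters, in 3 of the 25 others and in 15.4% of all promoters. Within 250 bases 0 of the 8 called genes held CACGTG and 0 held TGACG. At that length TGACG was present in 4 of 12 JAZ windows and in 19.1% of all promoters. With 8 genes and background shares of that size, a lack of either motif cannot be read from these counts. Within 1000 bases 1 called gene (*OPR1*) held CACGTG and 4 (*AOC1*, *CYP94B3*, *JOX2* and *JOX3*) held TGACG, a motif present in 54.8% of all promoters of that length. These matches describe letters and were not tested for binding.

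The largest increases among the synthesis genes were those of *OPR1* (AT1G76680) and its neighbour *OPR2* (AT1G76690). They encode cytosolic relatives of OPR3 that reduce a range of electrophilic compounds and contribute little to jasmonate synthesis when OPR3 is present. *OPR1* was at 24.0, 18.1 and 23.6 TPM in mock replicates 1 to 3 and at 139, 153 and 238 TPM in SNP replicates 1 to 3. The groups were far apart, with SNP replicate 3 the highest. Its log2 fold change was 2.95 (SE 0.22, limma adjusted p = 0.000234), a 7.74-fold rise. Without SNP replicate 3 and in the 15 other settings the change stayed between 2.72 and 3.10. *OPR2* was at 2.08, 1.55 and 2.33 TPM in mock and at 7.90, 11.2 and 13.0 TPM in SNP samples, a log2 fold change of 2.16 (SE 0.21, limma adjusted p = 0.000753). Annotated exons of these neighbours overlap, and 182 of the 75-base exon windows occur in both, out of 1968 in *OPR1* and 1311 in *OPR2*, so reads there could belong to either gene. For each of the other genes every 75-base exon window was unique in the genome.

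*OPR3* (AT2G06050), the reductase of the main route to jasmonic acid, went the other way. It was at 129, 103 and 123 TPM in mock and 93.0, 79.5 and 85.9 TPM in SNP samples. The groups did not overlap, and the log2 fold change of -0.45 (SE 0.11, limma adjusted p = 0.0233) was below the fold limit. Its adjusted p was above 0.05 when mock replicate 3 or any SNP replicate was left out (up to 0.0868). Since TPM is per length, levels of the reductases can be set side by side within a sample. *OPR1* was at 0.176 to 0.192 times the level of *OPR3* in mock samples and at 1.49 to 2.77 times in SNP samples. *OPR3* accordingly made up 83.2% ± 0.710 (SD, n = 3) of the summed *OPR* level in mock and 32.3% ± 6.64 (SD, n = 3) in SNP samples. In each SNP sample *OPR1* had become the most abundant of the family.

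The allene oxide cyclases, which set the stereochemistry of the precursor, did not move together. *AOC1* (AT3G25760) was at 1.84, 1.13 and 2.22 TPM in mock and 3.47, 3.11 and 3.99 TPM in SNP samples, a log2 fold change of 0.88 (SE 0.21, limma adjusted p = 0.0217). *AOC2* (AT3G25770), the next gene on the chromosome, was at 6.76, 7.57 and 19.0 TPM in mock and 29.9, 19.8 and 32.8 TPM in SNP samples. Mock replicate 3 nearly reached the lowest SNP sample. The log2 fold change of *AOC2* was 1.39 (SE 0.39, limma adjusted p = 0.0351), and the call ended without a filter or without the trend in eBayes. Left out in turn, mock replicates 1 and 2 and SNP replicates 1 and 3 each ended it too, with adjusted p-values up to 0.116, and *AOC1* lost its call without SNP replicate 1 (0.0688) or SNP replicate 3 (0.0858). *AOC3* (AT3G25780), last in the row, had a log2 fold change of 0.12 (95% interval -0.43 to 0.66). *AOC4* (AT1G13280), the most abundant of the family, fell from 84.2, 72.6 and 84.5 TPM to 62.2, 58.5 and 59.0 TPM, a change of -0.42 (limma adjusted p = 0.0140) that was below the fold limit, with an adjusted p above 0.05 when any SNP replicate was left out (up to 0.0701). The summed *AOC* level was 102 to 143 TPM in mock and 106 to 131 TPM in SNP samples, so the groups overlapped in the sum. The share of *AOC2* in it was 8.78% ± 4.05 (SD, n = 3) in mock and 22.4% ± 3.62 (SD, n = 3) in SNP samples.

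The remaining synthesis genes were not called. *LOX2* (AT3G45140), the lipoxygenase of leaf wound responses, was at 194, 170 and 436 TPM in mock and 147, 194 and 201 TPM in SNP samples, and mock replicate 3 alone stood apart. Its log2 fold change of -0.44 was within the error (SE 0.34, limma adjusted p = 0.367). *LOX3* and *LOX4*, close relatives that act in flowers and wounded leaves, had changes of -0.41 and -0.25 (limma adjusted p = 0.162 and 0.616), and *LOX3* passed the criterion only without mock replicate 1 (-0.60, adjusted p = 0.0179). *LOX6* was at 45.7 to 46.6 TPM in all SNP samples and at 29.2, 44.7 and 45.5 TPM in mock samples, a log2 fold change of 0.24 with groups that lay next to each other without overlap (limma adjusted p = 0.324). *AOS* (AT5G42650) had a change of -0.35 (limma adjusted p = 0.140). *JAR1* (AT2G46370) was higher below the fold limit, at 20.7, 24.9 and 25.7 TPM in mock and 29.8, 31.8 and 30.4 TPM in SNP samples (log2 fold change 0.37, limma adjusted p = 0.0399). The adjusted p of *JAR1* was above 0.05 when mock replicate 2 or any SNP replicate was left out (up to 0.129).

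**Figure D3:**
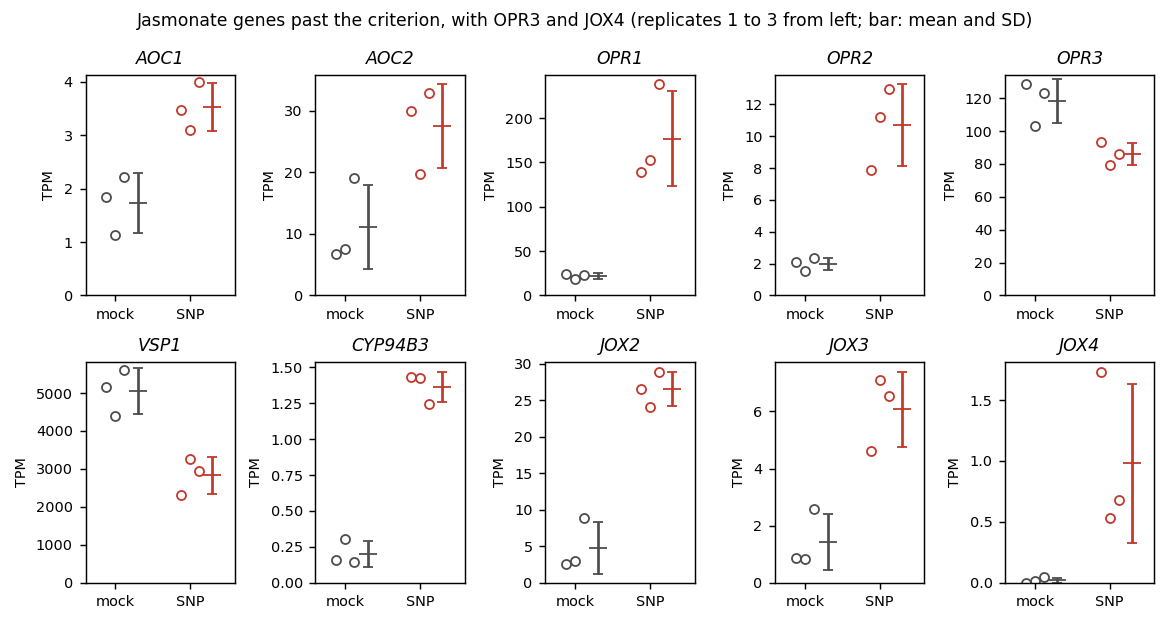
TPM of the 8 called jasmonate genes and of *OPR3* and *JOX4*, by sample, with the mean and SD of 3 samples beside the points on axes that start at 0. The 3 SNP values of *JOX2* (24.1 to 28.8) all exceed the highest mock value (8.80), and the 3 SNP values of *VSP1* (2300 to 3264) all lie under the lowest mock value (4408).

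Of the 6 turnover genes 3 could be tested and were called higher, from low levels, and *CYP94B3* passed the filter only through its SNP values, so the 3 calls among 3 tested genes are not a count over the family. *JOX2* (AT5G05600), which encodes a jasmonic acid oxidase, was at 2.51, 2.94 and 8.80 TPM in mock and 26.5, 24.1 and 28.8 TPM in SNP samples. All SNP values were higher, and mock replicate 3 stood well above the other mock samples. The log2 fold change was 2.55 (SE 0.40, limma adjusted p = 0.00458), a 5.88-fold rise. *JOX3* (AT3G55970), of the same enzyme family, was at 0.862, 0.849 and 2.58 TPM in mock and 4.60, 7.10 and 6.53 TPM in SNP samples, a log2 fold change of 1.86 (SE 0.34, limma adjusted p = 0.00820). *CYP94B3* (AT3G48520), which hydroxylates the isoleucine conjugate, was at 0.156, 0.302 and 0.142 TPM in mock and 1.43, 1.42 and 1.24 TPM in SNP samples, on 12 to 103 reads. Its log2 fold change was 1.42 (SE 0.16, limma adjusted p = 0.00121) with the pseudocount of 0.5 and 2.32 with 0.1. *JOX2*, *JOX3* and *CYP94B3* kept their calls under each alternative in which they were tested.

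The other 3 turnover genes lay under the filter. *JOX4* (AT2G38240) missed it with a mean of 0.499 TPM. It was at 0, 0.0132 and 0.0433 TPM in mock samples, on at most 4 reads, and at 1.73, 0.529 and 0.682 TPM in SNP samples. All SNP values were above all mock values, and without a filter *JOX4* had an adjusted p = 0.0148 from limma. *CYP94C1* (AT2G27690), which oxidises the conjugate further, was at 0.299, 0.373 and 0.793 TPM in mock and 0.426, 0.333 and 0.496 TPM in SNP samples, which overlap. *JOX1* (AT3G11180) was near 0, with 0 to 3 reads. The 6 turnover genes summed to 3.87 to 12.4 TPM in mock and to 33.5 to 37.8 TPM in SNP samples, most of it *JOX2*.

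*COI1* (AT2G39940), the receptor subunit, was at 27.5, 29.3 and 26.5 TPM in mock and 36.25, 35.95 and 37.04 TPM in SNP samples. The spread within each group was small and the groups did not overlap, with a log2 fold change of 0.39 (SE 0.08, limma adjusted p = 0.0133) under the fold limit. *MYC3* (AT5G46760) was the more abundant of the 2 MYC genes measured. It was at 99.0, 112 and 105 TPM in mock and 149, 144 and 144 TPM in SNP samples, a log2 fold change of 0.47 (SE 0.08, limma adjusted p = 0.00610). *MYC4* (AT4G17880) was at 20.6, 19.5 and 22.4 TPM in mock and 29.0, 24.6 and 26.7 TPM in SNP samples (log2 fold change 0.35, limma adjusted p = 0.0401). Receptor and MYC transcripts were thus 1.28 to 1.39 times the mock level, each below the fold limit, and the adjusted p rose above 0.05 without SNP replicate 1 or 3 for *COI1* (up to 0.0766) and without any single replicate but mock replicate 1 for *MYC4* (up to 0.160). It was also above 0.05 with the length trend removed for *COI1* (0.0620) and *MYC4* (0.113), and for *MYC4* with median-of-ratios (0.0798) or 75th percentile scaling (0.105).

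Of the 12 JAZ genes 11 were tested and 0 passed the criterion, beside 16.9% of all tested genes. With 11 genes and a share of that size, a lack of calls cannot be read as a trait of the family. An unadjusted p under 0.05 in limma was reached by *JAZ5* alone. *JAZ12* (AT5G20900) was the most abundant, at 174, 242 and 235 TPM in mock and 256, 253 and 238 TPM in SNP samples, followed by *JAZ9* at 73.2, 148 and 171 TPM in mock and 166, 138 and 146 TPM in SNP samples. In both, mock replicate 1 was the lowest sample and the other 5 samples lay close together. *JAZ12* and *JAZ9* together held 54.6% ± 3.13 (SD, n = 3) of the summed JAZ level in mock and 61.6% ± 1.90 (SD, n = 3) in SNP samples. The sum over the JAZ genes was 460, 672 and 780 TPM in mock and 704, 614 and 625 TPM in SNP samples, so the SNP samples lay within the range of the mock samples.

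Log2 fold changes of the 11 tested JAZ genes lay between -0.74 and 0.28, with 5 above and 6 below 0. The sign changed without mock replicate 1 for *JAZ3*, *JAZ8* and *JAZ9*, without mock replicate 3 for *JAZ1* and *JAZ2*, and without SNP replicate 3 for *JAZ8*. *JAZ5* (AT1G17380) had the largest, at 24.4, 30.3 and 48.8 TPM in mock and 25.4, 16.3 and 18.3 TPM in SNP samples. Its highest SNP value was above its lowest mock value. The change was -0.74 (SE 0.27, limma adjusted p = 0.0822), and without mock replicate 1, the sample low for long genes, it passed the criterion at -0.95 (adjusted p = 0.0221). The adjusted p of *JAZ5* was also under 0.05 with median-of-ratios scaling (0.0483), 75th percentile scaling (0.0445) or the length trend removed (0.0313), and that of *JAZ6* was 0.0302 without mock replicate 1. The wound-responsive *JAZ7*, *JAZ8* and *JAZ10*, which are often read as signs of an active pathway, had changes of -0.33, 0.11 and -0.28, with 95% intervals of -1.07 to 0.41, -0.57 to 0.79 and -0.86 to 0.30. These intervals reach past the fold limit of 1.5 in some direction, so changes of that size are not shown to be absent. The narrowest interval was that of *JAZ11*, from -0.12 to 0.34, and *JAZ4* was under the filter at 0.110 to 0.282 TPM.

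The vegetative storage protein genes, classic targets of the MYC branch, were the most abundant of the 36. *VSP1* (AT5G24780) was at 5146, 4408 and 5602 TPM in mock and 2300, 3264 and 2944 TPM in SNP samples. The groups did not overlap, and the log2 fold change of -0.84 (SE 0.17, limma adjusted p = 0.0122) is 0.558 times the mock level. Without a filter on low values the call ended (adjusted p = 0.0519). *VSP2* (AT5G24770), its neighbour, was at 1812, 1592 and 1563 TPM in mock and 1390, 2238 and 1438 TPM in SNP samples, and SNP replicate 2 was the highest of all. Its log2 fold change was -0.004 (95% interval -0.47 to 0.46, limma adjusted p = 0.991). *VSP1* was 2.77 to 3.58 times as abundant as *VSP2* in mock samples and 1.46 to 2.05 times in SNP samples, ranges that do not overlap. Of the 5 green tissue genes, *LHCB3* was called lower (log2 fold change -0.72, limma adjusted p = 0.00335). *LHB1B2* had -0.80 (adjusted p = 0.0490), which missed the criterion but passed it without mock replicate 3 or with the replicate block. The other 3 had no adjusted p under 0.05. The part of the green tissue genes in the *VSP1* result was not tested.

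Mock samples also differed among themselves in these genes. Mock replicate 3 was the highest of the 3 mock samples in 24 of the 32 tested genes, beside 31.8% of all tested genes. It exceeded both other mock samples by more than 1.5 times in 9 of the 32 (*LOX2*, *LOX4*, *AOC2*, *JAZ1*, *JAZ5*, *JAZ8*, *JAZ10*, *JOX2* and *JOX3*), beside 1.48% of all tested genes. *JAZ1* (AT1G19180) shows the pattern, with 23.8, 31.6 and 52.8 TPM in mock and 34.6, 28.3 and 29.8 TPM in SNP samples. Other samples departed within their group too. SNP replicate 2 was the lowest SNP sample in 18 of the 32, beside 32.5% of all tested genes. SNP replicate 1 was the highest SNP sample in 17, beside 30.0%. Mock replicate 2 was the lowest mock sample in 13, beside 18.7%. All of these are counts over genes of single libraries, without a test. Without mock replicate 3 the criterion was passed by 7 jasmonate genes that were higher and 1 that was lower, as with all samples, and the median log2 fold change of the 32 genes was 0.30, compared with 0.12.

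**Figure D4:**
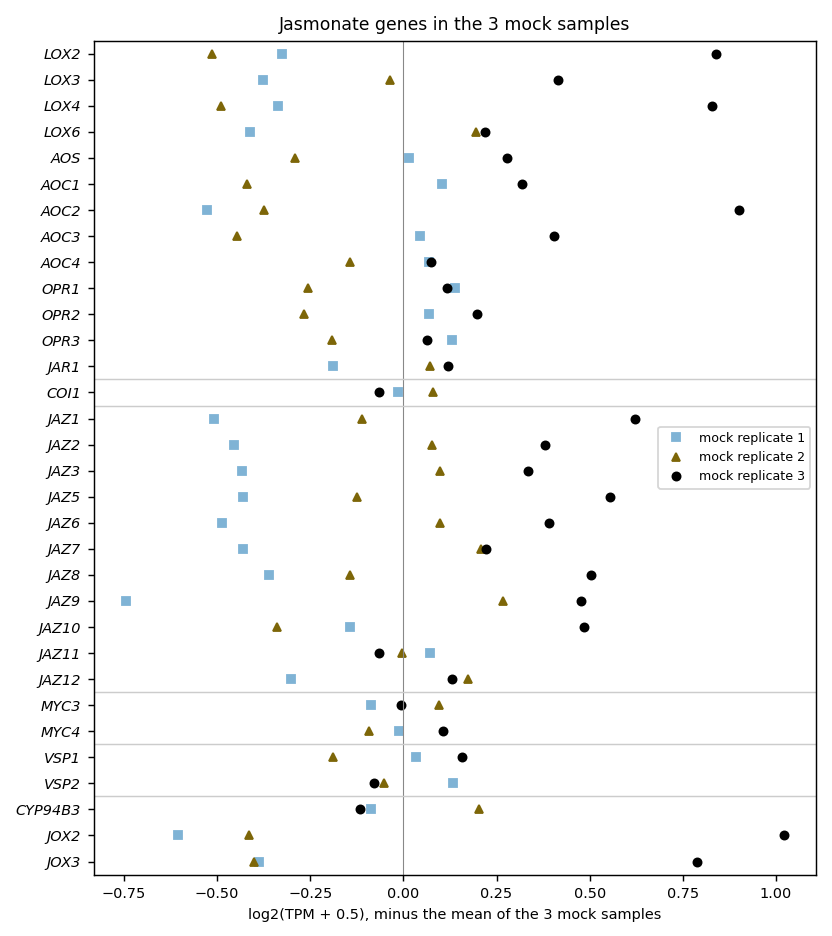
Level of the 32 tested jasmonate genes in each mock sample, as log2(TPM + 0.5) minus the mean of the 3 mock samples. Mock replicate 3 (black circles) lies furthest to the right in 24 rows, most clearly in *LOX2*, *LOX4*, *AOC2*, *JOX2* and *JOX3*.

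Beyond these genes, 42 further genes of the pathway or listed beside it were examined, of which 33 passed the filter, 7 were called higher and 1 lower. The background of 16.9% given above applies to them too. This list was chosen with earlier results of these data known, so its count is not an independent comparison with that share. In clearance and hydrolysis, *IAR3* (AT1G51760), an amidohydrolase that cleaves the isoleucine conjugate, was at 37.8, 47.4 and 58.0 TPM in mock and 97.3, 82.5 and 90.6 TPM in SNP samples (log2 fold change 0.93, limma adjusted p = 0.00620). *ST2A* (AT5G07010), a sulfotransferase of hydroxylated jasmonate, was at 0.182, 0.280 and 0.221 TPM in mock and 1.12, 1.12 and 0.513 TPM in SNP samples (0.93, adjusted p = 0.0203), on 13 to 75 reads. It passed the filter only through its SNP values and lost its call in each fit that left out a replicate other than SNP replicate 3 (adjusted p up to 0.0740). *ILL6*, a relative of *IAR3*, had 0.44 (adjusted p = 0.290) and passed the criterion only without mock replicate 3 (0.79, adjusted p = 0.0210). Of 6 beta-oxidation genes 1 was called, the acyl-CoA oxidase gene *ACX1* (AT4G16760). It was at 61.1, 77.4 and 78.5 TPM in mock and 130, 151 and 139 TPM in SNP samples (0.95, adjusted p = 0.00198). An unadjusted p under 0.05 from limma was also reached by *OPCL1* (-0.42), *AIM1* (0.30) and *MFP2* (0.29). Their groups did not overlap, which held for 51.2% of all tested genes, and their adjusted p-values were 0.0989, 0.0572 and 0.117. Fatty acid desaturase (3 tested), transport (3) and 9-lipoxygenase genes (2) had 0 calls by limma, with log2 fold changes from -0.24 to 0.53. The 9-lipoxygenase genes *LOX1* and *LOX5* are listed beside the pathway and not as a step of jasmonate synthesis. In these groups an unadjusted p under 0.05 was reached by the transport gene *JASSY* alone.

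Among signaling genes *JAV1* (AT3G22160), a VQ-motif repressor of jasmonate defence, was at 9.28, 7.85 and 6.26 TPM in mock and 19.8, 15.6 and 17.7 TPM in SNP samples (log2 fold change 1.14, limma adjusted p = 0.00320). *MYC5* (AT5G46830), a MYC factor active in stamens, fell from 1.01, 0.705 and 1.24 TPM to 0.146, 0.201 and 0.118 TPM (-1.17, adjusted p = 0.00458), on 8 to 132 reads. It passed the filter only through its mock values. *NINJA*, *TPL* and *MED25*, partners of JAZ and MYC proteins, had changes of 0.02, 0.57 and 0.74, with adjusted p-values of 0.919, 0.139 and 0.131. Mock replicate 1 was the lowest sample in *TPL* and *MED25*, both long genes. It was also the lowest of the 3 mock samples in 55.3% of all tested genes. The cause of the changes of *TPL* and *MED25* was not tested.

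Among the genes listed here for the branch that jasmonate shares with ethylene, 3 of 5 tested were called higher. The share over all tested genes was 10.5%. These genes too were chosen with earlier results known, so the count is not an independent comparison with that share. Whether each listed gene belongs to the branch was not tested. *ERF1* (AT3G23240), a transcription factor of this branch, was at 0.530, 0.755 and 1.21 TPM in mock and 4.67, 9.61 and 5.84 TPM in SNP samples (log2 fold change 2.41, limma adjusted p = 0.00170). *ORA59* (AT1G06160), a second factor, was at 4.07, 3.09 and 2.47 TPM in mock and 8.35, 4.79 and 5.74 TPM in SNP samples (0.86, adjusted p = 0.0336), and it missed the criterion with 75th percentile or median-of-ratios scaling, without a filter, and without mock replicate 2 or 3 or SNP replicate 1 or 3 (adjusted p up to 0.0997). The defence gene *HEL* (AT3G04720) was at 1.21, 1.15 and 0.903 TPM in mock and 9.26, 2.64 and 8.86 TPM in SNP samples (2.06, adjusted p = 0.0121). *CHI-B* (AT3G12500) was not called (0.70, adjusted p = 0.0724). Its groups did not overlap, which held for 51.2% of all tested genes. It passed the criterion only without SNP replicate 2 (0.96, adjusted p = 0.0158). The defensin gene *PDF1.2a*, a standard readout of the branch, was near 0 in all samples, with 0 to 3 reads, and the thionin gene *THI2.1* was abundant and variable, at 670, 230 and 431 TPM in mock and 174, 269 and 435 TPM in SNP samples. Of the MYC-branch genes *TAT3*, *CORI3* and *CLH1*, 0 were called, with log2 fold changes of -0.48, 0.28 and -0.50, and *CLH1* alone had an unadjusted p under 0.05 in limma. *CORI3* passed the criterion without mock replicate 3 (0.71, adjusted p = 0.0370) and *CLH1* with 75th percentile scaling (-0.59, adjusted p = 0.0289). The difference between the branches was not tested.

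**Figure D5:**
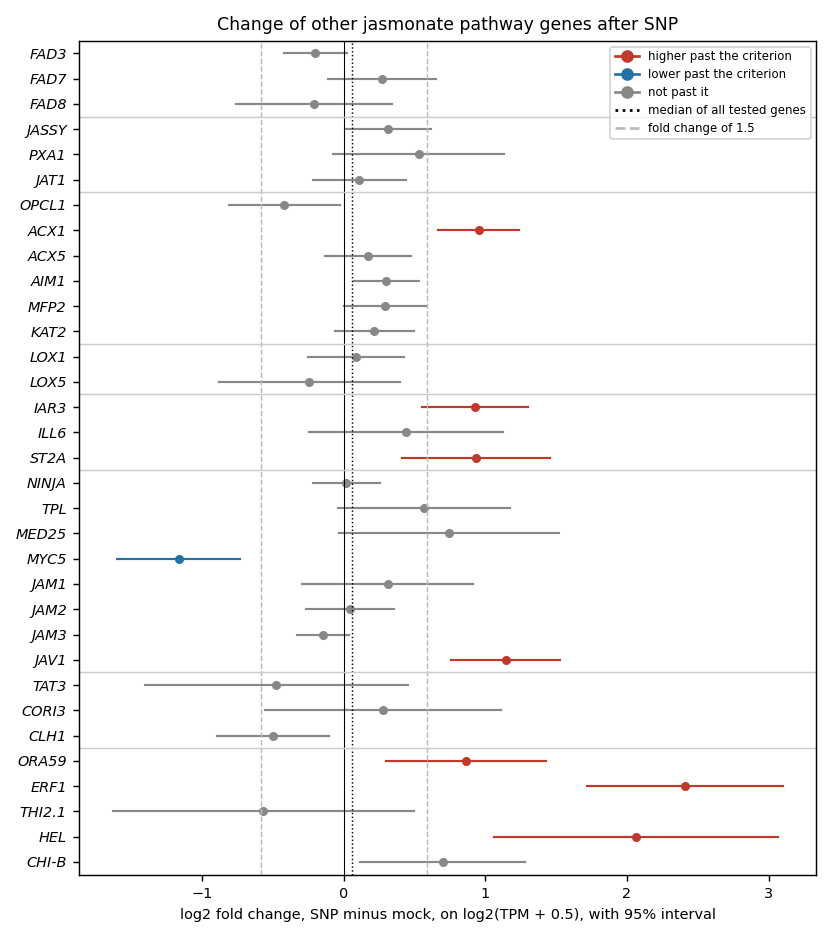
Log2 fold change with 95% interval of the 33 tested genes of the pathway or listed beside it, outside the 37. Groups run by step from fatty acid supply at the top to the genes listed for the ethylene branch at the bottom. Colours are those used for the 32 jasmonate genes. *ERF1* and *HEL* are the furthest right, at 2.41 and 2.06, and *MYC5* is the single blue gene, at -1.17.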

How the data were processed

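RNA-seq of *ap1/cal* shoot apices was analysed for 3 mock and 3 SNP samples, grouped by the sample titles. Libraries were strand-specific, and the authors aligned 75-base reads to TAIR10 with STAR. What they deposited is TPM for 24340 genes, each sample in its own column. The counting tool and gene filter are not given in the sources used here. The authors also deposited log2 fold changes with p-values and adjusted p-values of their own comparison, which were not used. Whether replicates came from separate plants beyond the methods' term biological replicates is not stated, so p-values measure the spread between these samples.

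TPM keeps no depth, but TPM times merged exon length (TAIR10.1, known for 24184 genes) gave whole multiples of a step in 99.3% of values above 0, within 0.05, and reads were taken from this step. All 6 values were whole for 24014 of these genes. Sequences and coordinates are those of TAIR10.1, and the TAIR10 sequence itself was not used here. Read numbers cover counting error only. The files are in TPM, so no count model was run.

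All tests used limma 3.58.1 in R 4.3.3 (lmFit, eBayes with trend, no block) on log2(TPM + 0.5) for the 18966 genes averaging 0.5 TPM or more, with Benjamini-Hochberg adjustment over all of them, and were tested on simulated data first. For single genes with groups that did not overlap, the two-sided exact permutation p was 0.1, the smallest that 3 against 3 allows. Tables, motifs and plots used Python 3.11.15, numpy 2.4.6, pandas 2.3.3 and matplotlib 3.10.9. Motifs were searched on both strands. By rule, values in every sample are given for jasmonate genes past the criterion or of at least that fold change, for the most abundant of each role, and for up to 10 other pathway genes past the criterion. Others were added after their values were seen. Those with values in every sample include *OPR3*, *AOC4*, *LOX6*, *JAZ9*, *JAZ1*, *VSP2*, *THI2.1* and genes under the filter. Those given by their change alone are *ILL6*, *NINJA*, *TPL*, *MED25*, *TAT3*, *CORI3*, *CLH1*, *CHI-B*, *OPCL1*, *AIM1* and *MFP2*. The genes and lists were chosen with earlier results of these data known. *MYC2*, *MYB24* and *MS1* were not analysed here. Alternatives were other pseudocounts (0.1 or 1), filters (none, or 1 TPM) and scalings, eBayes options, a replicate block, removal of the length trend, other criteria and leaving out each sample.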

Additional observations from a re-analysis of the deposited data

How the results depend on the processing

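Of 813 comparisons of 51 single genes with an alternative, 766 kept their direction and side of the criterion, 23 lost a call (*AOC1*, *AOC2*, *VSP1*, *ST2A*, *ORA59* and *UFO*), 8 gained one (*LOX3*, *JAZ5*, *ILL6*, *MED25*, *CORI3*, *CLH1* and, with 2, *LHB1B2*) and 16 changed sign, none past the criterion on either side. Over the fits that left out a replicate, the log2 fold changes that changed sign ranged from -0.50 to 0.16 for *LOX4*, -0.11 to 0.32 for *AOC3*, -0.40 to 0.16 for *JAZ1*, -0.30 to 0.12 for *JAZ2*, -0.023 to 0.36 for *JAZ3*, -0.070 to 0.36 for *JAZ8*, -0.092 to 0.52 for *JAZ9*, -0.22 to 0.12 for *VSP2*, -0.078 to 0.082 for *NINJA* and -0.0021 to 0.71 for *CORI3*. The highest was without mock replicate 3 for all but *VSP2* (SNP replicate 1). The change of *NINJA* was -0.038 with median-of-ratios scaling, -0.069 with 75th percentile scaling and -0.030 with the length trend removed. The cause was not tested. *CHI-B*, *OPCL1*, *AIM1* and *MFP2* are not among the 51 genes. With an adjusted p under 0.05 in place of the criterion, 5619 genes of the table passed, among them 11 jasmonate genes that were higher and 3 that were lower. With a fold change of at least 2, 1474 genes passed, 0 jasmonate genes were lower (4 at an unadjusted p under 0.05 in limma) and 3 of the other pathway genes were higher. Without a filter 0 jasmonate genes were lower past the criterion, against 4 at an unadjusted p under 0.05 from limma, and *JOX4* joined the higher genes while *AOC2* left them. With a mean of at least 1 TPM, 0 other pathway genes were lower, against 2 at an unadjusted p under 0.05, since *MYC5* was not tested, and with 75th percentile scaling 2 were lower. Leaving out each replicate gave 2724 to 3339 genes in all, 5 to 7 jasmonate genes higher and 1 to 3 lower (3 without mock replicate 1), 5 to 7 other pathway genes higher and 1 lower, and a median log2 fold change of the jasmonate genes from 0.0059 (without mock replicate 1) to 0.30 (without mock replicate 3).

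Samples with equal replicate numbers did not deviate together for every number, with correlations of 0.304, -0.0017 and -0.091 across genes for numbers 1, 2 and 3. Correlations between unequal numbers ran from -0.289 (mock 3 with SNP 1) to 0.317 (mock 3 with SNP 2). The numbers were therefore not taken to pair the samples. With the replicate block 3457 genes passed the criterion, with 7 jasmonate genes higher and 1 lower and 8 other pathway genes higher (*MED25* joining at an adjusted p of 0.0376) and 1 lower, and the adjusted p of *MYC4* was 0.0574. Read number limits *CYP94B3* (12 to 103), *JOX4* (0 to 102), *ST2A* (13 to 75) and *MYC5* (8 to 132).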

Other observations

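Several of the genes lie close together, among them *OPR1* and *OPR2*, which both rose. *JOX2* is separated by 2 annotated genes from the desaturase gene *FAD8*, which was at 11.8, 17.7 and 22.2 TPM in mock and 12.6, 17.1 and 13.7 TPM in SNP samples, while *JOX2* rose. *JOX1* and *FAD7*, another desaturase gene, are direct neighbours, and *JOX1* was near 0 while *FAD7* was at 57.7 to 95.1 TPM over the 6 samples. *LOX3* and *JAZ5* are separated by 4 genes and had log2 fold changes of -0.41 and -0.74. In the row of *AOC1*, *AOC2* and *AOC3* the changes were 0.88, 1.39 and 0.12.

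Genes of the pathway under the filter included *JMT*, which makes the volatile methyl ester, at 0.270, 0.636 and 0.739 TPM in mock and 0.1765, 0.1003 and 0.2424 TPM in SNP samples. *JAZ13* was at 0.389, 0.149 and 1.45 TPM in mock and 0.288, 0.03996 and 0.258 TPM in SNP samples, again highest in mock replicate 3. The defensin gene *PDF1.2b* was at 0.0410, 0 and 0 TPM in mock and 1.71, 0.109 and 0.573 TPM in SNP samples, on at most 39 reads. Without a filter their adjusted p-values from limma were 0.0609, 0.338 and 0.109.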
